A study of Mus musculus with 8 samples.

Results

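This comparison set mice carrying 1 deleted copy of the 1b interval of *Scn1a* against wild-type (WT) mice at postnatal day 7 (P7), across every gene that could be measured. All libraries labelled HT (1b+/-, n = 4) and all labelled WT (n = 2) were taken, 6 of the 8 libraries of the series. A gene was included if it reached 1 CPM (reads of a gene relative to the library total; the values printed are also TMM-scaled) in at least 1 of these 6 libraries, and 15398 of the 24015 entries in the count table did so. Both groups were on the C57BL/6N background, and no treatment is named. The WT animals carried 0 deleted alleles and were both male. The 1b+/- animals carried 1 deleted and 1 intact allele, with 2 males (replicates 1 and 2) and 2 females (replicates 3 and 4). The deletion was made with Cas9 in oocytes, is carried in the germline and is therefore present in every cell, and was kept as a single line by crossing carriers to C57BL/6N. The remaining 2 libraries, 1b-/- females with 2 deleted alleles, entered the fit to help estimate the spread and are cited only beside results of the 6.

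*Scn1a* encodes Nav1.1, the pore-forming alpha subunit of a voltage-gated sodium channel that opens on depolarisation and carries the rising phase of the action potential. In the postnatal brain it is best known for sustaining fast firing of GABAergic interneurons, and loss of a working copy in people causes Dravet syndrome, a severe epilepsy of infancy. Its transcription begins at more than one non-coding first exon, and the interval removed here contains the one named 1b.

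In mm9 the gene spans bases 66108838 to 66278897 of chromosome 2 and is read from the minus strand. The 30-base window that ends on the first transcribed base is shown for the start inside the deleted interval, because it is the start that the deletion removes. It was read from the mm9 genome on the transcribed strand, with the first transcribed base of the GENCODE transcript in capitals.
1b start of Scn1a-001, chr2:66248121-66248150: agagtgaggcgaggatgaagccgagaggaT
The counts are per gene, so reads from every start and from both alleles are summed in every value below.

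Depth ranged from 2947770 counts (1b+/- replicate 4) to 20878772 (1b+/- replicate 3), and a count of 0 allowed up to 0.145 CPM in the deepest and 1.0 CPM in the shallowest of the 6 libraries, for counting error only. The labels name the tissue hippocampus, their extraction text also lists cortex and cerebellum, and the methods of the study name forebrain. Lists of neocortical genes (summed, 3635 to 5513 CPM), striatal genes (summed, 1439 to 1670.5 CPM) and hippocampal genes (summed, 562.7 to 700.4 CPM) were all present. Levels varied widely within the hippocampal list. *Mpped1* was at 296 to 451 CPM and the dentate gyrus gene *Prox1* at 11.6 to 30.6 CPM. The dentate gene *C1ql2* did not exceed 1.32 CPM and the CA1 gene *Fibcd1* did not exceed 6.79 CPM. In tissue of mixed cells, fewer cells of a type and less RNA per cell cannot be told apart. Some libraries stood apart before any test was made. WT replicate 1 was high in epithelial genes, 1b+/- replicate 1 in midbrain, hindbrain and meningeal genes, and 1b+/- replicate 2 was low in choroid plexus genes, and the values are given with the lists they touch.

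*Scn1a* was lower in every 1b+/- library than in either WT library. The WT libraries held 45.1 and 40.4 CPM, and 1b+/- replicates 1 to 4 held 26.6, 22.2, 25.4 and 15.7 CPM. The lowest value came from the shallowest library, in which 47 reads were assigned to the gene. The group means were 42.7 ± 3.32 CPM (SD, n = 2) and 22.5 ± 4.91 CPM (SD, n = 4), so that 1b+/- mice had 52.6% of the WT mean. The fitted log2 fold change was -0.90 (SE 0.21), with a 95% interval that ran from 39.1% to 73.4% of the WT level.

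The *Scn1a* difference did not pass the adjusted threshold in the edgeR quasi-likelihood test, which is the test meant wherever no other is named. The unadjusted p was 0.00104 and the Benjamini-Hochberg adjusted p over 15398 genes was 0.388, against a threshold of 0.05. The adjusted p was 0.0214 in the edgeR likelihood ratio test and 0.0708 in DESeq2. An exact two-sided permutation test of the CPM values gave 0.133, the smallest p that 15 arrangements of 4 against 2 allow. *Scn1a* ranked 41 of 15398 genes by unadjusted p, and 7 among the 9614 genes with a mean of at least 10 CPM. Of those 9614 genes, 17 had a log2 fold change at or below that of *Scn1a* (itself included) and 36 had one at or above 0.90. Within 1b+/-, females differed from males by -0.20 on the log2 scale (SE 0.26, unadjusted p 0.455 in edgeR). The fold change ranged from -0.98 to -0.79 when each library was left out in turn.

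No other sodium channel alpha subunit passed the test in either direction. *Scn2a1*, the main channel of young excitatory axons, was 361 and 328 CPM in WT and 315, 293, 352 and 276 CPM in 1b+/- (log2 fold change -0.15, 95% interval -0.46 to 0.15). *Scn3a*, which is prominent before and around birth, was 200.2 and 186 CPM in WT and 219.6, 169, 203 and 163 CPM in 1b+/- (-0.03, interval -0.35 to 0.29). *Scn8a*, the channel that takes over at mature axon initial segments, was 70.0 and 70.8 CPM in WT and 78.3, 79.8, 76.2 and 64.0 CPM in 1b+/- (0.09, interval -0.22 to 0.40). The groups overlapped for all 3. Of the 8 alpha subunits tested besides *Scn1a*, 0 were lower and 0 were higher even at an unadjusted p under 0.05, and their median log2 fold change was 0.25 (0.03 without 1b+/- replicate 1), against 0.01 over all genes tested. Over all genes, 1.85% were lower and 2.49% were higher by that rule. *Scn7a*, a sodium-sensing relative that lies in the same gene cluster, had the largest value of the 8 (1.90, and 0.78 without 1b+/- replicate 1), and it came from 7.12 CPM in 1b+/- replicate 1 and 2.12 CPM in replicate 2 against at most 1.0 CPM elsewhere among the 6.

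**Figure D1:**
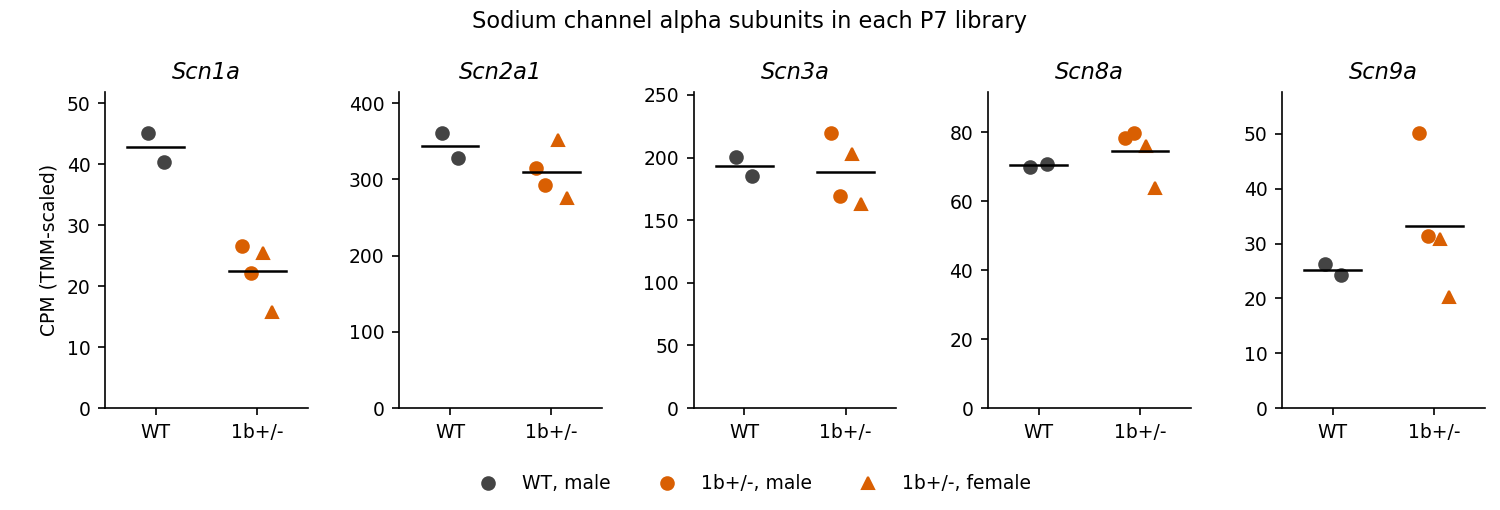
TMM-scaled CPM of 5 sodium channel alpha subunits in each of the 6 libraries, one point per animal with the group mean as a bar, circles for males and triangles for females. For *Scn1a* all 1b+/- points (15.7 to 26.6) lie under both WT points (40.4 and 45.1), whereas the groups overlap for *Scn2a1*, *Scn3a*, *Scn8a* and *Scn9a*.

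Genes whose products hold sodium channels in place, or change their gating, showed 1 of 13 members lower at an unadjusted p under 0.05 and 0 higher, with a median of -0.11. The 1 was *Fgf14*, an intracellular partner of the channels at the axon initial segment, at 73.1 and 68.2 CPM in WT and 53.0, 54.1, 66.3 and 47.3 CPM in 1b+/-. All 1b+/- values lay under both WT values, by a log2 of -0.35 (SE 0.15, unadjusted p 0.0434, not past the adjusted threshold in edgeR). The anchors *Ank3* (-0.07, SE 0.13) and *Nrcam* (-0.11, SE 0.12) overlapped between the groups. For 12 of the 13 the 95% interval stayed within a 2-fold change in either direction.

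The genes on either side of *Scn1a* on chromosome 2 were likewise without a call. Of 13 flanking genes, 1 was lower and 0 were higher at an unadjusted p under 0.05, and their median was -0.13 (0.03 without WT replicate 1 or without 1b+/- replicate 4). *B3galt1*, which encodes a glycosyltransferase, was 124 and 110.3 CPM in WT and 81.1, 90.0, 111 and 76.3 CPM in 1b+/- (log2 fold change -0.38, SE 0.16, unadjusted p 0.0333 in edgeR). Its 1b+/- replicate 3 reached the lower WT value, so the groups touched. *Stk39*, the kinase gene at one end of the list, was 85.5 and 83.8 CPM in WT and 73.7 to 84.7 CPM in 1b+/-.

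Across all 15398 genes, 13 passed an adjusted p of 0.05 and all 13 were lower in 1b+/-, that is 0.0844% of the genes tested, while 0 (0%) were higher. The edgeR likelihood ratio test passed 55 lower and 10 higher genes, and DESeq2 passed 19 and 5. The 10 included the sex-linked gene *Xist* (log2 fold change 7.54, likelihood ratio test adjusted p 0.0323). *Xist* was 542 and 270 CPM in the female 1b+/- libraries and 1.65 and 3.13 CPM in the male ones. In WT, where both animals were male, it was 1.24 and 0.918 CPM, so that call followed the sex of the animals. At an unadjusted p under 0.05, edgeR gave 285 lower and 384 higher genes, 4.34% of all in either direction. In 912 genes (5.92%) every 1b+/- library lay below both WT libraries, and in 991 (6.44%) every one lay above. How small a change could be bounded depended on the level. The 95% interval stayed within 2-fold for 0 of 1421 genes with a mean under 1 CPM, for 1740 of 4363 (39.9%) between 1 and 10 CPM, for 6721 of 7113 (94.5%) between 10 and 100 CPM, and for 2474 of 2501 (98.9%) at 100 CPM or more. In that last group, 55 genes were lower and 17 higher at an unadjusted p under 0.05, whereas in the 10 to 100 CPM group 83 were lower and 148 higher.

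**Figure D2:**
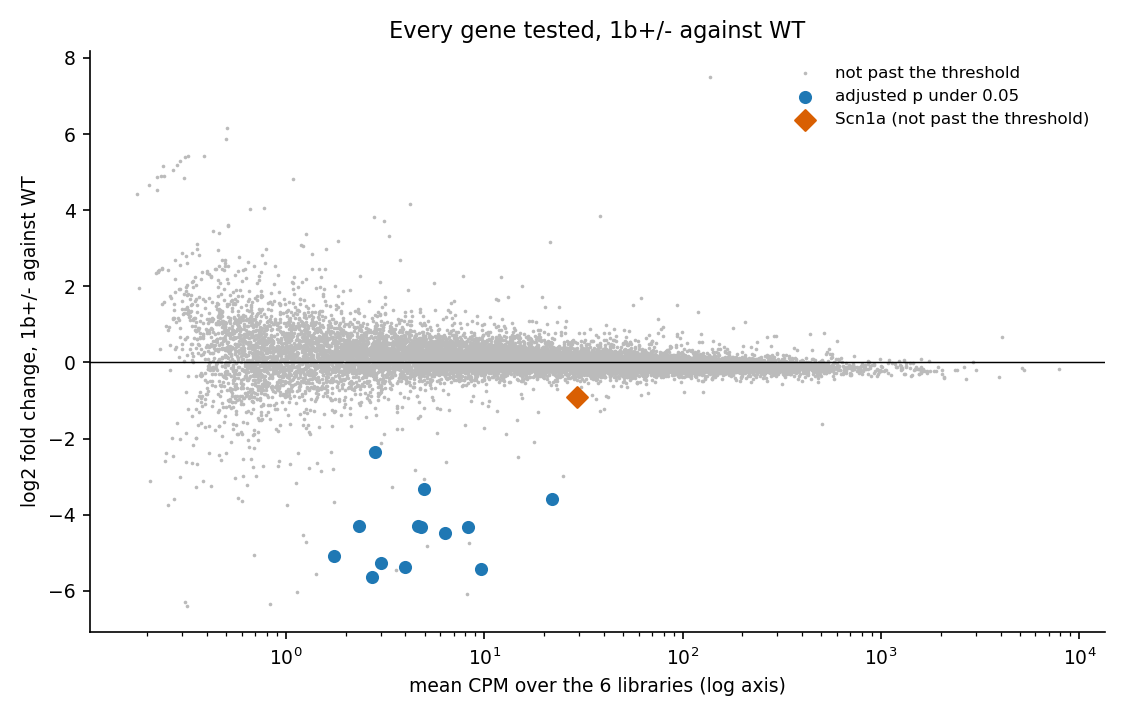
Log2 fold change of 1b+/- against WT for all 15398 genes tested, plotted against the mean CPM over the 6 libraries on a log axis. The 13 genes past the adjusted threshold (blue) all lie below 0, the nearest to it at -2.36, and *Scn1a* (diamond, -0.90) sits below most genes of its abundance without passing.

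The 13 genes that fell were mainly genes of epithelia and of the cells that line body cavities. Keratins of layered epithelium (*Krt13*, *Krt15*, *Krt6a*) and of simple epithelium (*Krt8*, *Krt19*) made up 5 of them, and *Scel*, a protein of the cornified envelope, belongs to the same list. *Msln*, the mesothelial surface protein mesothelin, and the uroplakins *Upk1b* and *Upk3b*, known from bladder lining, were 3 members of the mesothelium and urothelium list. The others were *Ppbp*, a chemokine precursor stored in platelets, *Mal*, a membrane proteolipid of myelin and of epithelial apical transport, *Tph1*, the serotonin-synthesis enzyme of pineal gland and gut, and *Serpinb9b*, a protease inhibitor gene. The lists that hold these genes are described whole further on, with the members that did not pass.

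*Ppbp* (mm9 chromosome 5, 91197544 to 91199086, plus strand) was 45 and 10.7 CPM in WT, and 0.527, 1.21, 0.532 and 0 CPM in 1b+/-. Its log2 fold change was -5.43 (SE 0.57, edgeR adjusted p 0.00646). The 2 WT libraries differed from each other by more than any 1b+/- pair did in CPM, and every 1b+/- library lay far below both. *Msln* (chromosome 17, 25885559 to 25891272, minus strand) was 13.1 and 4.28 CPM in WT and 0.198, 0.101, 0.339 and 0 CPM in 1b+/- (-5.28, SE 0.56, adjusted p 0.00646). *Upk1b* (chromosome 16, 38773297 to 38800316, minus strand) was 17.3 and 5.66 CPM in WT and 0.593, 0.202, 0.0968 and 0 CPM in 1b+/- (-5.38, SE 0.62, adjusted p 0.0107). For both, the 1b+/- values rested on 0 to 9 reads a library, so the size of the fold is loosely known. *Upk3b*, with 2, 3, 0 and 1 reads in 1b+/- against 80 and 20 in WT, is given without a fold.

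Among the keratins, *Krt8* (chromosome 15, 101827142 to 101834773, minus strand) was 19.2 and 6.12 CPM in WT and 0.329, 1.01, 0.387 and 1.67 CPM in 1b+/- (log2 fold change -4.33, SE 0.56, edgeR adjusted p 0.0254). *Krt15* (chromosome 11, 99993072 to 99997263, minus strand) was 36.6 and 8.72 CPM in WT and 0.988, 2.62, 0.484 and 0.333 CPM in 1b+/- (-4.32, SE 0.61, adjusted p 0.0330). Its neighbours on chromosome 11, *Krt13* (-4.47) and *Krt19* (-4.29), and the chromosome 15 gene *Krt6a* also had both WT libraries above every 1b+/- library, with *Krt6a* at 158 and 17 reads in WT and 4, 3, 0 and 0 reads in 1b+/-. Keratins and uroplakins have close relatives, and how reads with several matches were counted was not stated, so the level of any single member is uncertain.

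*Mal* (chromosome 2, 127458962 to 127482431, minus strand) was 95 and 17.7 CPM in WT and 6.13, 4.54, 3.44 and 5.0 CPM in 1b+/- (log2 fold change -3.59, SE 0.48, edgeR adjusted p 0.0254). *Tph1* (chromosome 7, 53902500 to 53927907, minus strand) was 5.37 and 6.73 CPM in WT and 1.45, 0.807, 1.11 and 1.33 CPM in 1b+/- (-2.36, SE 0.35, adjusted p 0.0330). *Tph1* was the 1 gene of the 13 in which WT replicate 1 was not the higher WT library, and it had the smallest change of the 13. *Scel* (-3.32) and *Serpinb9b* (-4.30) complete the set, the latter resting on 6, 1, 10 and 0 reads in 1b+/-. Of the 13, *Msln*, *Upk1b*, *Upk3b*, *Krt6a* and *Serpinb9b* reached 1 CPM in WT alone. They entered the test through the group where they were high, so the entry rule partly set their direction.

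WT replicate 1 carried most of the signal of these genes. Summed over the 13, it held 330.3 CPM and WT replicate 2 held 85.1 CPM, a ratio of 3.88, while the 1b+/- libraries held 15.2, 14.3, 8.52 and 9.67 CPM. The 1b-/- libraries, which are measured against the same WT animals, held 13.8 and 9.52 CPM. Without WT replicate 1 the number past the threshold was 0 in edgeR (298 genes at an unadjusted p under 0.05), although all 13 stayed lower, *Mal* by a log2 of -1.90, *Scel* by -2.09, *Krt13* by -2.38 and *Msln* by -4.27. Without 1b+/- replicate 3 it was also 0, without 1b+/- replicate 1 or 4 it was 4, and without WT replicate 2 it was 29. With the 2 male 1b+/- animals alone against the male WT animals no gene passed (0, with 864 at an unadjusted p under 0.05). Within 1b+/- no gene of the 13 passed for females against males (lowest unadjusted p 0.0396).

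**Figure D3:**
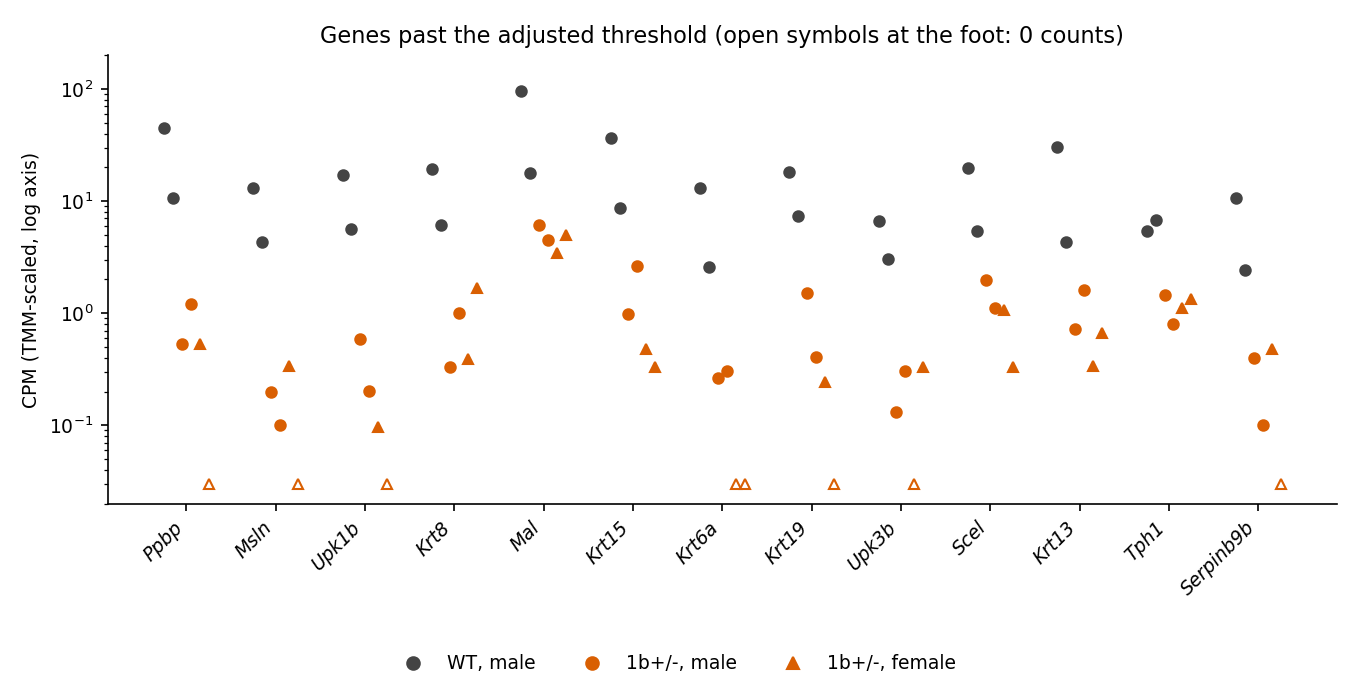
TMM-scaled CPM on a log axis of the 13 genes past the adjusted threshold, in each of the 6 libraries, ordered by p and with libraries at 0 counts drawn as open symbols at the foot. Both WT points (black) lie above every 1b+/- point (orange) for each gene, and the first WT point is the higher one for 12 of 13.

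Short of the threshold, 2 lower genes had an adjusted p under 0.06 and are named after their values were seen, and both passed in the likelihood ratio test and in DESeq2. *Rsph4a*, a radial spoke protein of motile cilia, was 16.3 and 12.9 CPM in WT and 4.48, 2.93, 5.57 and 6.00 CPM in 1b+/- (log2 fold change -1.65, SE 0.27, edgeR adjusted p 0.0594). Here the WT libraries were close to each other, and the 1b-/- libraries (8.70 and 10.8 CPM) lay between the groups. *Upk3bl*, a uroplakin-like gene next to *Upk3b* in the same family, held 76 and 13 reads in WT and 0, 0, 4 and 0 in 1b+/- (adjusted p 0.0599).

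No gene was higher past the threshold in the quasi-likelihood test, and the 8 higher genes of lowest p that did not overlap between groups had adjusted p-values of 0.352 to 0.468 there. In the likelihood ratio test 6 of the 8 passed, all but *Col11a1* and *Trabd2b*, and in DESeq2 3 passed (*Igf1*, *Sepp1* and *Agtr2*, adjusted p 0.00384 to 0.0292). *Igf1*, the growth factor, was 26 and 24.5 CPM in WT and 67.1, 117, 55.6 and 44.7 CPM in 1b+/- (log2 fold change 1.5, SE 0.35). *Sepp1*, the selenium carrier selenoprotein P, was 73.2 and 97.8 CPM in WT and 128, 156, 136 and 153 CPM in 1b+/- (0.75, SE 0.17). *Agtr2*, the type 2 angiotensin receptor, was 0.826 and 0.765 CPM in WT and 8.5, 5.75, 1.98 and 4.67 CPM in 1b+/- (2.69, SE 0.60). In all 3 each 1b+/- value lay above both WT values, which the rule that picked the 8 required. *Agtr2* reached 1 CPM in 1b+/- alone. It entered through the group where it was high, so the entry rule partly set its direction.

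The other 5 were genes of connective tissue and bone, of Wnt signalling, or of less certain role. *Col11a1*, a fibrillar collagen, was 34.4 and 36.3 CPM in WT and 48.3 to 80.3 CPM in 1b+/- (log2 fold change 0.83, SE 0.21), and *Sp7*, a transcription factor of bone-forming cells, was 0.0826 and 0.306 CPM in WT and 0.968 to 2.97 CPM in 1b+/-. *Ror1*, a Wnt-binding receptor, was 2.31 and 2.14 CPM in WT and 4.69 to 7.97 CPM in 1b+/- (1.41, SE 0.32). *Trabd2b*, a membrane protease that acts on Wnt ligands, was 2.06 and 2.14 CPM in WT and 3.97 to 7.05 CPM in 1b+/-, and *Prune2* was 10.8 and 8.42 CPM in WT and 16 to 25.4 CPM. *Sp7* rested on 1 and 2 reads in WT, so no fold is given for it. It reached 1 CPM in 1b+/- alone and so entered through the group where it was high.

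Among genes with a mean of 100 CPM or more, the 4 lower genes of lowest p are named after their values were seen, and none passed adjustment in the quasi-likelihood test or DESeq2, while *Tmem158* passed narrowly in the likelihood ratio test (adjusted p 0.0491). *Tmem158* was 142 and 138 CPM in WT and 67.0, 66.5, 106 and 88.0 CPM in 1b+/- (log2 fold change -0.77, SE 0.19, edgeR adjusted p 0.460). *Cadm1*, a synaptic adhesion molecule, was 597 and 611 CPM in WT and 419, 373, 499 and 397 CPM in 1b+/- (-0.52, SE 0.14). *Ncam1*, the neural cell adhesion molecule, was 2372 and 2547 CPM in WT and 1739, 1911, 1996 and 1819.5 CPM in 1b+/- (-0.40, SE 0.12). *Rbfox3*, which encodes the neuronal nuclear antigen NeuN, was 142 and 168 CPM in WT and 97.3 to 133 CPM in 1b+/- (-0.49, SE 0.16). In each of these 4 the highest 1b+/- library was replicate 3 and none reached a WT library.

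Potassium channels, which end the action potential and set the resting potential, had 1 of 43 genes lower and 2 higher at an unadjusted p under 0.05, with a median log2 fold change of -0.01. By the same rule 1.85% of all genes were lower and 2.49% higher, and the counts of this and every later list stand against these shares. *Kcna2*, an axonal delayed rectifier, was 30.1 and 30 CPM in WT and 41.1, 46.2, 35.2 and 41.3 CPM in 1b+/- (0.44, SE 0.16, unadjusted p 0.0193 in edgeR). *Kcnk1*, a background leak channel, was 29.6 and 23.1 CPM in WT and 14.5 to 23 CPM in 1b+/- (-0.51, SE 0.20, and -0.31 without WT replicate 1), and *Kcnj6*, a channel opened by G proteins, was 4.54 and 2.45 CPM in WT and 4.67 to 8.96 CPM in 1b+/-. For 39 of the 43 the interval stayed within 2-fold.

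Calcium channel genes had 1 of 18 lower and 0 higher, with a median of 0.03. That gene was *Cacng2*, an AMPA receptor auxiliary subunit also counted as a calcium channel gamma subunit, at 75.4 and 79.1 CPM in WT and 60.1, 52.6, 68.6 and 47.3 CPM in 1b+/- (log2 fold change -0.42, SE 0.17, unadjusted p 0.0307 in edgeR). Of the 4 HCN pacemaker channels 0 passed an unadjusted p of 0.05 (median 0.07), and all 4 intervals stayed within 2-fold.

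Transmitter receptors and interneuron genes were examined because Nav1.1 is best known for its part in inhibitory neurons. Of 18 GABA receptor and chloride transporter genes, 0 were lower and 0 higher at an unadjusted p under 0.05, and the median was -0.15. For 16 of the 18 the interval stayed within 2-fold. Of 18 interneuron genes 0 and 0 passed, with a median of -0.06. *Gad1* (-0.01, SE 0.22) and *Gad2* (0.02, SE 0.15), the enzymes that make GABA, overlapped between groups, and the interval for *Gad2* ran from -0.30 to 0.33. *Lhx6*, a transcription factor of interneurons from the medial ganglionic eminence, was 112 and 181 CPM in WT and 79.3 to 142 CPM in 1b+/-, and *Reln* was 438 and 483 CPM in WT and 432 to 751 CPM in 1b+/-. Of 22 glutamate receptor genes 0 and 0 passed (median -0.07), with *Grm5* at 405 and 369 CPM in WT and 219 to 369 CPM in 1b+/- and *Grik3* at 166 and 179 CPM against 137 to 163 CPM.

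Immediate early genes, which are transcribed within minutes of neuronal firing, had 2 of 20 lower and 0 higher at an unadjusted p under 0.05, and a median of -0.06. *Nr4a2*, an orphan nuclear receptor, was 194 and 154 CPM in WT and 76.9, 67.2, 154 and 109 CPM in 1b+/- (log2 fold change -0.77, SE 0.27, unadjusted p 0.0155 in edgeR). *Nr4a3*, of the same family, was 29.4 and 33 CPM in WT and 8.76, 20.4, 24.1 and 24.3 CPM in 1b+/- (-0.71, SE 0.32, unadjusted p 0.0456, and -0.44 without 1b+/- replicate 1). The lowest values of *Nr4a2* came from the male 1b+/- animals. Female replicate 4 (109 CPM) also lay under both WT libraries, and female replicate 3 met the lower one. No member passed the adjusted threshold in either edgeR test or DESeq2.

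Genes of synaptic vesicle release had 0 of 23 members lower or higher by the same rule, with a median of -0.11, and 21 of the 23 intervals stayed within 2-fold. *Snap25*, a SNARE protein, was 427 and 421 CPM in WT and 300.4, 376, 408 and 313 CPM in 1b+/- (log2 fold change -0.28, SE 0.16), and *Cplx2*, complexin, was 333 and 332 CPM against 237, 238, 312 and 311 CPM. Neither overlapped between groups and neither passed. Other genes in which mutations cause epileptic encephalopathy had 0 of 23 lower or higher (median -0.12), and all 23 intervals stayed within 2-fold. *Mef2c* was 1663 and 1653 CPM in WT and 866, 1551, 1514 and 1242 CPM in 1b+/-.

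Lists of region genes were read next, with no member past adjustment in either edgeR test or DESeq2. Neocortical genes had 1 of 17 lower and 0 higher at an unadjusted p under 0.05 (median -0.16), the 1 being *Lmo3* at 247 and 305 CPM in WT and 184, 132, 238 and 211 CPM in 1b+/- (log2 fold change -0.53, SE 0.20). Hippocampal genes had 1 of 13 lower, *Prox1*, at 30.6 and 17 CPM in WT and 14.6, 11.6, 20.1 and 11.7 CPM in 1b+/- (-0.70, SE 0.28), and 0 higher (median -0.02). The *Prox1* value was -0.20 without WT replicate 1 and -1.05 without WT replicate 2. Striatal genes had 0 of 15 in either direction (median -0.11).

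Thalamic genes also had 0 of 9 lower or higher (median -0.31, and 0.24 without WT replicate 1), but the libraries differed widely. *Tcf7l2*, a transcription factor of thalamic neurons, was 117 and 13.3 CPM in WT and 62.8, 23.3, 14.7 and 8.67 CPM in 1b+/-, so WT replicate 1 and 1b+/- replicate 1 were the high ones. Hypothalamic peptide and factor genes had 0 of 9 in either direction (median 0.19).

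Midbrain and hindbrain genes had 4 of 21 higher and 0 lower at an unadjusted p under 0.05, with a median of 1.13. The 4 were transcription factors of that territory, *En2*, *Barhl1*, *Pax7* and *Pax2*. Of 28 genes listed 21 were tested, and these 4 reached 1 CPM in 1b+/- libraries alone. They entered through the group where they were high, so the entry rule partly set the direction of the count and the median. *En2* was 0.743 and 0.153 CPM in WT and 15.6, 2.52, 0.823 and 0 CPM in 1b+/-, and *Barhl1* was 0.495 and 0.153 CPM in WT and 14.2, 3.53, 0.387 and 0 CPM. Replicate 1 was the highest library for all 4, and replicate 2 also lay above both WT libraries for all 4, with *Pax2* at 1.58 and 1.51 CPM in replicates 1 and 2 and at most 0.248 CPM in WT. Replicate 3 lay above both WT libraries for *En2* and *Pax2* alone among these 4, and replicate 4 for none of them. The summed CPM of the list was 21.5 and 12.7 in WT and 93.2, 38, 13.2 and 14 in 1b+/-, and the median was 0.37 without 1b+/- replicate 1.

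The choroid plexus list held genes that were low in all 4 1b+/- libraries and others, *Ttr* among them, that were at the WT level in replicate 4. Of 15 members, 5 were lower and 0 higher at an unadjusted p under 0.05, with a median log2 fold change of -1.03. None passed adjustment in the quasi-likelihood test, while *Tmem72* (adjusted p 0.000850) and *Slc4a5* (0.00633) passed in the likelihood ratio test and *Tmem72* (0.0187) in DESeq2. *Ttr*, transthyretin, the main secreted protein of choroid plexus, was 883 and 937 CPM in WT and 168, 6.76, 153 and 885 CPM in 1b+/-. Replicate 4 was at the WT level and replicate 2 was far under it (log2 fold change -1.61, SE 0.99, and -3.05 without replicate 4).

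*Tmem72* was 6.11 and 5.20 CPM in WT and 1.25, 0.303, 1.40 and 1.67 CPM in 1b+/- (log2 fold change -2.34, SE 0.48, edgeR quasi-likelihood adjusted p 0.262). *Slc4a5*, a bicarbonate transporter, was 6.61 and 7.34 CPM in WT and 2.57, 0.807, 1.94 and 3.67 CPM in 1b+/- (-1.75, SE 0.40, adjusted p 0.384). *Sostdc1*, a secreted BMP and Wnt antagonist (-1.71, SE 0.43), and *Kcne2*, a potassium channel subunit of this epithelium (-1.88, SE 0.68), were also without overlap between the groups. The summed CPM of the list was 1089 and 1147 in WT and 317, 119, 269 and 1094 in 1b+/-, and 524 and 964 in 1b-/-. *Ttr* alone gave 885 CPM of the sum in replicate 4. The list median was -1.75 without 1b+/- replicate 4 and -0.68 without replicate 2.

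Ependymal genes, which mark the ciliated lining of the ventricles, had 5 of 9 lower and 0 higher at an unadjusted p under 0.05 (median -0.70). *Foxj1*, the transcription factor that directs motile cilia, was 9.17 and 15.6 CPM in WT and 6.92, 5.35, 5.95 and 9.33 CPM in 1b+/- (log2 fold change -0.88, SE 0.28, unadjusted p 0.00960 in edgeR, and -0.46 without WT replicate 2). *Rsph1*, a radial spoke protein, was 5.37 and 5.66 CPM in WT and 1.31 to 4.33 CPM in 1b+/- (-1.13, SE 0.39), and *Dynlrb2*, a dynein light chain, was 2.56 and 2.60 CPM against 0.333 to 1.19 CPM (-1.83, SE 0.56). The adenylate kinase gene *Ak7* (-1.18, SE 0.40) and the axonemal dynein gene *Dnah9* (-0.48, SE 0.21) made up the 5. Unlike the choroid list, the summed CPM of this list did not overlap between the groups, at 47.6 and 55.4 in WT and 29.2 to 35.3 in 1b+/-, while 1b-/- held 39.6 and 53.9. That was not particular to this list. Sums without overlap were also lower in 1b+/- for sodium channel partners and for GABA receptor, immediate early, synaptic vesicle and epileptic encephalopathy genes. The same held for the epithelial, mesothelium and urothelium, and platelet lists. For striatal genes it held only narrowly, with 1638.65 CPM in 1b+/- replicate 3 against 1639.11 CPM in WT replicate 1. Sums without overlap were higher in 1b+/- for endothelial and mural and for interferon genes. The low *Rsph4a* values stood beside the low ependymal values, and the part that the amount of ventricular lining had in them was not tested.

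The epithelial list, taken whole, had negative fold changes throughout. Of 24 members tested, 17 were lower and 0 higher at an unadjusted p under 0.05, 6 passed adjustment, and the median log2 fold change was -2.49. In the likelihood ratio test 13 passed and in DESeq2 8, all of them lower. The basal keratins *Krt5* (6.19 and 1.07 CPM in WT, 0.145 to 1.41 CPM in 1b+/-) and *Krt14* (2.81 and 0.153 CPM in WT, 0 to 0.606 CPM in 1b+/-) overlapped between the groups, with WT replicate 2 as low as the 1b+/- libraries. *Krt14* and *Krt6a* reached 1 CPM in WT alone, so they entered the test through the group where they were high. The summed CPM of the list was 353 and 122 in WT and 80.7, 60.5, 47.5 and 42.3 in 1b+/-. The list median was -1.04 without WT replicate 1 and -3.16 without WT replicate 2.

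The mesothelium and urothelium list had 5 of 7 lower and 0 higher, 3 of them past adjustment. Only 7 of its 12 genes were tested, and *Msln*, *Upk1b*, *Upk3b* and *Upk3bl* reached 1 CPM in WT alone. They entered through the group where they were high, so the entry rule partly set the direction of this count. No median is given, since several members rested on few reads in 1b+/-. Its summed CPM was 48.4 and 17 in WT and 3.62, 3.33, 2.18 and 0.667 in 1b+/-. The platelet list did not move with *Ppbp*. Of 7 members 1 was lower and 1 higher (median -0.23, and 0.17 without WT replicate 2), and *Pf4*, the platelet factor gene that is usually found with *Ppbp*, was 0.991 and 1.53 CPM in WT and 2.83, 1.92, 1.69 and 2.33 CPM in 1b+/-. The pineal list had 1 of 4 lower, *Tph1* itself, with the pineal and retinal factor *Crx* at 0.743 and 1.07 CPM in WT and 0 to 0.505 CPM in 1b+/-.

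**Figure D4:**
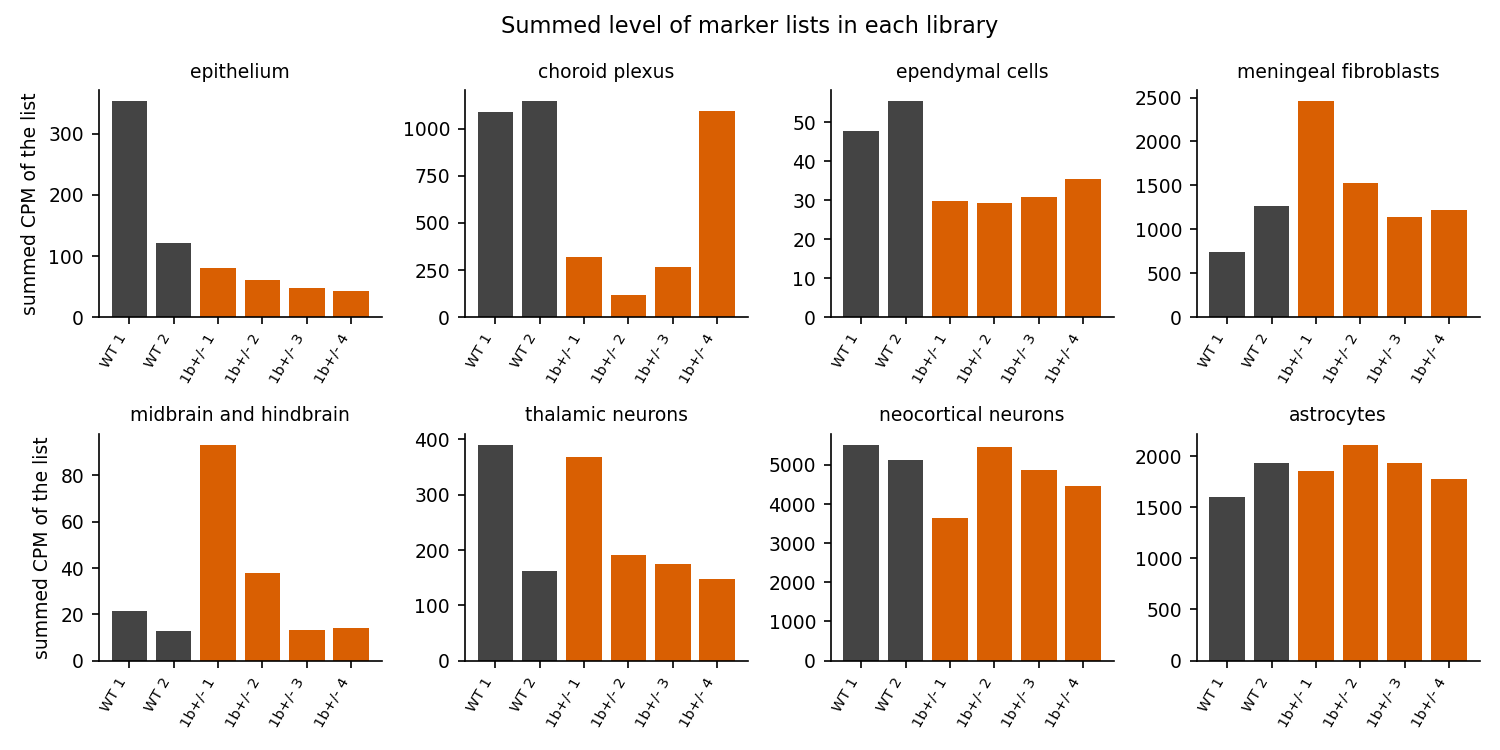
Summed TMM-scaled CPM of 8 marker lists in each of the 6 libraries, WT in black and 1b+/- in orange, each panel with its own axis from 0. Epithelial genes are highest in WT replicate 1 (353), the choroid plexus sum is low in 1b+/- replicates 1 to 3 (119 to 317) and is 1094 in replicate 4, of which *Ttr* gives 885, and meningeal, midbrain and hindbrain genes are highest in 1b+/- replicate 1.

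Meningeal fibroblast genes had positive log2 fold changes in all 16 members tested, with a median of 0.75. At an unadjusted p under 0.05, 8 were higher and 0 lower, and none passed adjustment in either edgeR test or DESeq2. *Dcn*, the proteoglycan decorin, was 50.3 and 78.2 CPM in WT and 120.5, 134, 88.6 and 87.3 CPM in 1b+/- (0.76, SE 0.23, edgeR adjusted p 0.896, and 0.47 without WT replicate 1). *Foxc1*, a transcription factor of the meninges, was 32.7 and 42.4 CPM in WT and 47.0 to 74.0 CPM in 1b+/-, and *Postn*, periostin, was 62.9 and 70.2 CPM against 88.2 to 123 CPM. The collagens *Col1a1* and *Col1a2* were set by 1 library, with 379.5 and 538 CPM in 1b+/- replicate 1 and at most 102 and 176 CPM in the others. The list sums were 738 and 1261 CPM in WT and 2458, 1525, 1145 and 1219 CPM in 1b+/-, so the sums overlapped, and the median was 0.47 without WT replicate 1.

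Endothelial and mural genes had 2 of 20 higher and 1 lower (median 0.46). *Cdh5*, the cadherin of endothelial junctions, was 33.7 and 43.6 CPM in WT and 50.9 to 61.7 CPM in 1b+/- (log2 fold change 0.57, SE 0.20), and *Pdgfrb*, the pericyte receptor, was 24.3 and 24.2 CPM against 29.3 to 45.3 CPM (0.55, SE 0.19). The lower one, *Slco1a4*, an organic anion transporter of brain capillaries and choroid plexus, was 6.85 and 9.33 CPM in WT and 3.29, 2.12, 3.15 and 3.00 CPM in 1b+/- (-1.46, SE 0.31, edgeR quasi-likelihood adjusted p 0.301, likelihood ratio test 0.00633, DESeq2 0.0863). It went against the rest of its list, in which 16 of 20 values were positive.

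The counts of the glial lists stand against 2.49% of all genes higher and 1.85% lower at an unadjusted p under 0.05, and *Mal* was the 1 member past adjustment. Among astrocyte genes 2 of 14 were higher and 0 lower (median 0.12, and -0.02 without WT replicate 1), both of them gap junction genes. *Gja1* was 140.2 and 273 CPM in WT and 427, 335, 328 and 237 CPM in 1b+/- (log2 fold change 0.69, SE 0.26), and *Gjb6* was 5.53 and 13 CPM against 24.1, 16.1, 13.3 and 12.7 CPM (0.90, SE 0.36). WT replicate 1 was the low library for both and WT replicate 2 overlapped with 1b+/-. Without WT replicate 1 the values were 0.28 for *Gja1* and 0.37 for *Gjb6*.

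Oligodendrocyte lineage genes had 3 of 16 higher and 1 lower (median 0.25, and -0.07 without 1b+/- replicate 1). *Sox10*, the lineage transcription factor, was 4.38 and 7.34 CPM in WT and 8.63, 12.8, 9.34 and 9.0 CPM in 1b+/-, and *Cldn11*, a tight junction protein of myelin, was 12.1 and 38.9 CPM against 64.1, 55.2, 34.7 and 41 CPM. The lower one was *Mal*, so that gene moved opposite to *Sox10*. Microglial genes had 2 of 16 higher and 0 lower (median 0.25, and 0.09 without 1b+/- replicate 1), the complement genes *C1qb* at 7.18 and 8.26 CPM in WT and 8.48 to 16 CPM in 1b+/-, and *C1qc* at 1.98 and 3.83 CPM in WT and 3.03 to 8.33 CPM.

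Of the remaining lists, cell cycle genes had 1 of 15 higher, *Birc5*, and 0 lower (median 0.26), and genes of progenitors and immature neurons had 0 of 14 in either direction (median -0.05). Cholesterol synthesis genes had 1 of 18 lower, *Fdft1*, the squalene synthase gene, at 294 and 314 CPM in WT and 208, 222, 259 and 233 CPM in 1b+/- (log2 fold change -0.40, SE 0.13, unadjusted p 0.00958 in edgeR), and 0 higher (median -0.08). Oxidative phosphorylation genes had 1 of 20 higher and 0 lower (median 0.10), and all 20 intervals stayed within 2-fold. Stress genes had 1 of 10 higher, *Atf3*, and 1 lower, *Hspb1* (median 0.10), interferon response genes had 1 of 8 higher, *Irf7* (median 0.39), and reactive glia genes had 1 of 7 in each direction (median -0.02). *Atf3*, *Hspb1* and *Irf7* did not exceed 1.72 CPM in any of the 6 libraries. *Atf3*, *Irf7*, the reactive glia gene *Timp1* and the mast cell gene *Cma1* reached 1 CPM in 1b+/- alone. *Hspb1* and the reactive glia gene *Serpina3n* reached it in WT alone. Each entered through the group where it was high, so the entry rule partly set the direction of these counts. Skeletal muscle genes had 2 of 7 lower, among them *Myh3* at 13.9 and 3.98 CPM in WT and 2.61 to 5.33 CPM in 1b+/- (median -0.45), mast cell genes had 1 of 4 higher (*Cma1*, median 0.42), red cell and leukocyte genes had 0 of 6 in either direction (median -0.40), and 0 of 8 pituitary genes were tested. Single libraries set several of these values. Without WT replicate 1 the median was 0.90 for skeletal muscle, 1.93 for mast cells and -0.02 for red cells and leukocytes, and *Myh3* was at 0.01. Without WT replicate 2 the skeletal muscle median was -1.10 and the mast cell median -0.15, and without 1b+/- replicate 1 the mast cell median was -0.47.

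**Figure D5:**
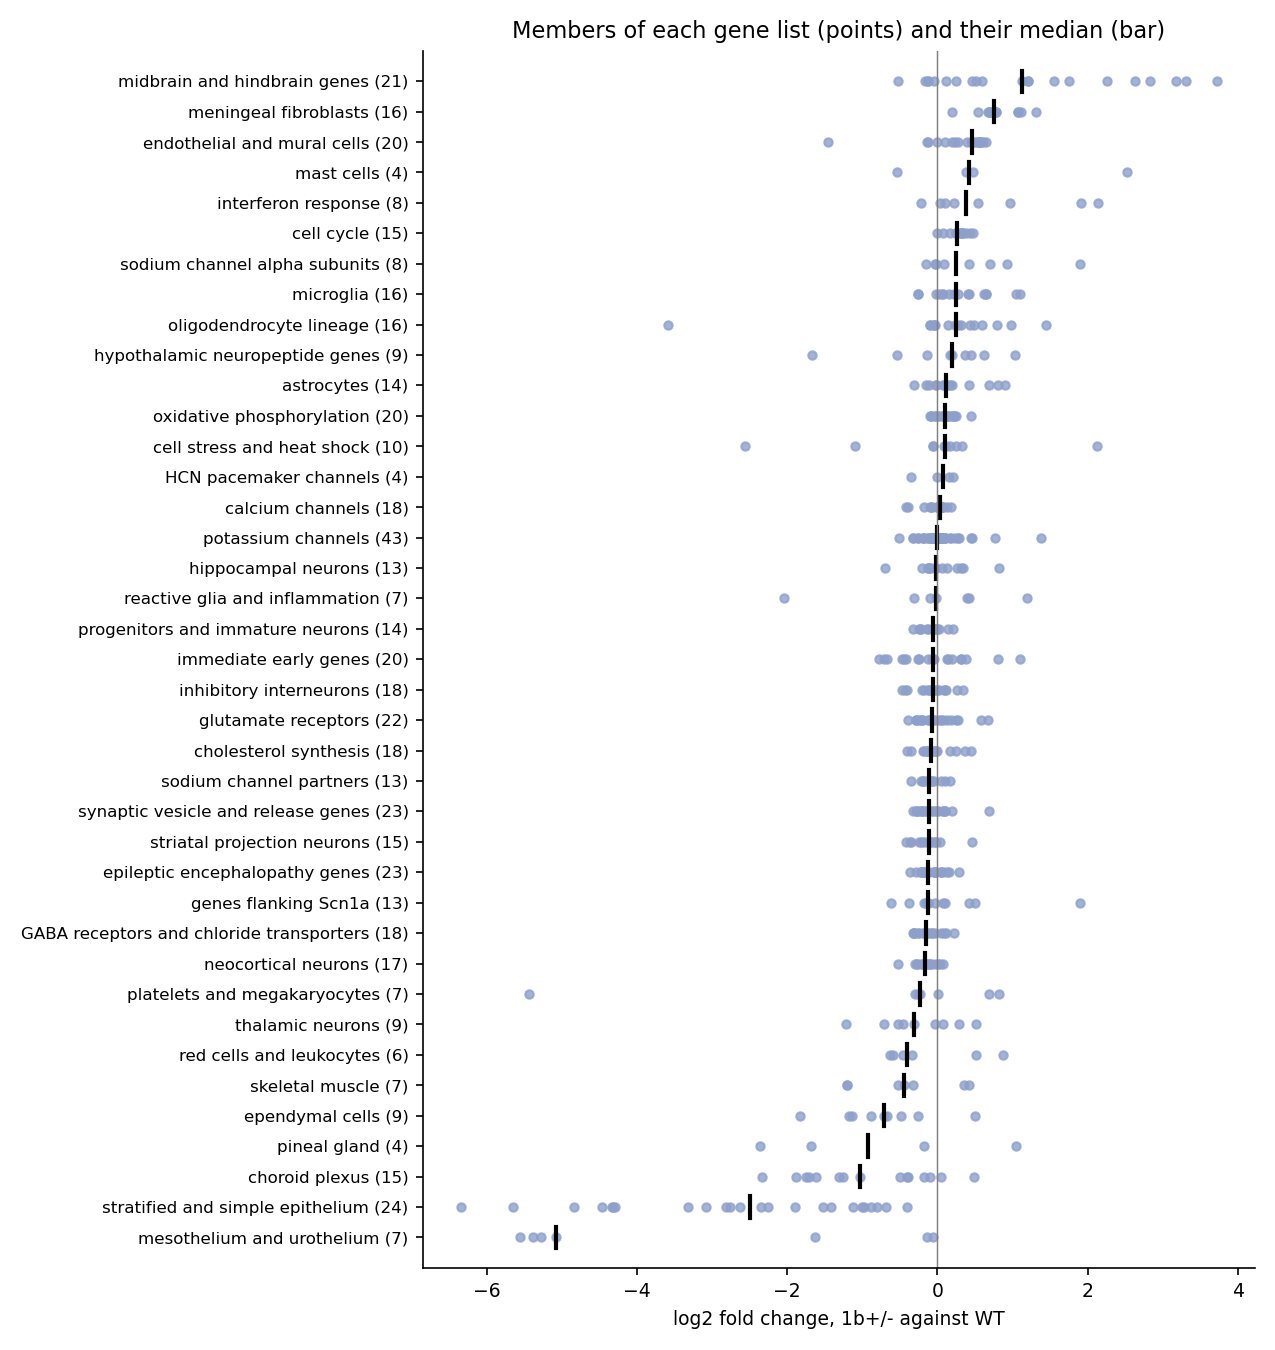
Log2 fold change of 1b+/- against WT for each tested member of the gene lists (points) and the list median (bar), ordered by median with the number of members in brackets. Lists of channels, receptors and forebrain neurons have medians from -0.31 (thalamic) to 0.25 (sodium channel alpha subunits), the mesothelial and epithelial lists lie lowest (-2.49 for the latter, and few reads behind the former), choroid plexus and ependymal lists lie lower (-1.03 and -0.70), and the meningeal and the midbrain and hindbrain lists lie higher (0.75 and 1.13).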

How the data were processed

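Total RNA from P7 brain tissue of 8 mice was made into stranded poly(A) libraries and read from a single end. According to the submitters' processing notes and the methods of the study, the authors used STAR 2.7.2 for alignment to mm9 and featureCounts for counting. The deposited values are raw counts, whole numbers per gene symbol with 1 column per animal. The strand setting, how multiply matching reads were counted, and which annotation was used are not given in the sources used here. Of 24013 distinct symbols, 20920 (87.1%) are gene names in GENCODE vM1, which gave positions. In 27 entries, 24 of them tested, a symbol had turned into a calendar date, and these are not named.

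Counts were analysed in R 4.3.3 by the edgeR 4.0.16 quasi-likelihood test, scaled by TMM, with genotype alone in the model. The 8 libraries shared 1 estimate of spread (5 residual degrees of freedom), and the contrast was 1b+/- minus WT. Genes needed 1 CPM in at least 1 of the 6 libraries compared. A gene that reached 1 CPM in 1 group alone entered through that group, which partly sets its direction. P-values were adjusted by Benjamini-Hochberg over 15398 genes at 0.05. CPM are TMM-scaled. Depth of 2947770 to 20878772 counts set the precision, and a floor of 3 counts was used for a count of 0. Lists are described by counts and medians, with no test of a list. Sex was compared within 1b+/- in a fit with 1b+/- divided by sex.

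Named were *Scn1a*, every gene past the threshold, the 8 non-overlapping genes of lowest p in each direction with a mean of at least 1 CPM, and in each list the first 2 members and up to 4 of lowest p (any member of a list of 14 or fewer). Other genes are said to be named after their values were seen. Members and lists were chosen with earlier results of these data known. Alternatives were RLE and upper quartile scaling, filterByExpr, no filter, the edgeR likelihood ratio test, the DESeq2 1.42.0 Wald test, only the 6 libraries, sex as a covariate, 1b+/- males alone, and omission of each library. The tests were tested on simulated data with known changes. Replicates are numbered in the order of the samples and are separate animals by the labels alone, so p-values measure the spread between these samples. No column was left out. Some items are not reported here.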

Additional observations from a re-analysis of the deposited data

Results flagged for a closer look

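The 4 1b+/- libraries were checked for a single library far from the other 3, by the gap to its nearest neighbour divided by the whole range, with Dixon's 95% critical value for 4 samples as the limit. This was done for 126 genes named in the text and 39 list sums, 165 measures in all, and 13 passed the limit, all of them genes. About 1 in 20 groups passes by chance, which gives about 8.25 for unselected and independent measures. Several of these genes were named after their values were seen, and related genes move together, so the 13 cannot be judged against that number. In 10 of these the library apart was 1b+/- replicate 1, and it was the high one: *Kcnj6* (0.865), *Lhx9* (0.887), *En2* (0.838), *Islr* (0.888), *Col1a1* (0.858), *Col1a2* (0.918), *Pou4f2* (0.876), *Ibsp* (0.869), *Fibcd1* (0.940) and *Stk39* (0.872). *Lhx9*, a transcription factor of thalamus and midbrain, was 106 CPM there and 16.3 to 26.4 CPM in replicates 2 to 4, while WT held 96.3 and 30.4 CPM. *Stk39*, a flanking gene of *Scn1a*, differed little, at 84.7 CPM against 73.7 to 75.1 CPM.

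Replicate 2 stood apart as the high library for *Sox10* (0.831) and for the skin gene *Hrnr* (0.849), the latter at 2.62 CPM against at most 0.395 CPM. *Upk3bl* had a value of 1 because replicate 3 was the only 1b+/- library with a read. Neither *Scn1a* nor any gene past the adjusted threshold of the comparison passed this limit.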

How the results depend on the processing

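The number of genes past the threshold moved with the test, the filter and single libraries. It was 13 (all lower) in the fit reported, 48 (43 lower, 5 higher) with no filter, 65 (55 lower, 10 higher) with the edgeR likelihood ratio test, and 24 (19 lower, 5 higher) with DESeq2, of which 13, 13 and 11 were among the 13. It was 0 with sex as a covariate and 0 for 1b+/- males against WT, which are the same fit because only 1b+/- has both sexes, and *Scn1a* there had a log2 fold change of -0.81. With single libraries left out it ranged from 0 to 29, lower genes from 0 to 29 and higher genes from 0 to 0. Where 1 WT library remained it was assumed to vary like the other groups. RLE scaling, upper quartile scaling, filterByExpr and the fit of 6 libraries gave 13, 12, 14 and 14, and the median of all genes moved by at most 0.04. All 13 and *Scn1a* stayed lower under every alternative run. For each of them every 1b+/- library lay below both WT libraries, so these alternatives could hardly have reversed the direction. *Scn1a* passed only in the likelihood ratio test (-0.90, adjusted p 0.0214). Its adjusted p ranged from 0.0214 to 1 over the alternatives, and its fold change from -0.98 to -0.79 with single libraries left out. The causes were not tested. No paired analysis was possible because replicate numbers are in the order of the samples and pair no animals. At this depth genes under 1 CPM could not be bounded within 2-fold.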

Other observations

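All genes of this part are named after their values were seen, and none passed the adjusted threshold in the edgeR quasi-likelihood test. In the likelihood ratio test *Krt1*, *Rptn*, *Hrnr*, *Krt10*, *Krt4* and *Zpld1* passed (adjusted p 0.00142 to 0.0264), and in DESeq2 *Zpld1* did (0.0312). The first 5 of these were highest in WT replicate 1. *Rptn*, repetin, was 47.6 CPM there, 0 CPM in WT replicate 2 and 0.132 to 0.505 CPM in 1b+/-. *Hrnr*, hornerin, was 45.8 and 0.918 CPM in WT and 0 to 2.62 CPM in 1b+/-. *Krt4*, a keratin of mouth and oesophagus lining, was 28.7 and 0.153 CPM in WT and 0 to 1.01 CPM in 1b+/-. The epidermal keratins *Krt1* and *Krt10* were 111 and 61.4 CPM in WT replicate 1, 7.96 and 10.1 CPM in WT replicate 2, and at most 9.69 and 9.59 CPM in 1b+/-. *Rptn*, *Hrnr*, *Krt4* and *Krt1* differ from *Msln*, *Upk1b* and *Tph1*, for which WT replicate 2 too lay above every 1b+/- library. For *Krt10* WT replicate 2 (10.1 CPM) lay only just above the highest 1b+/- library (9.59 CPM).

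The next 4 genes belong to no list and were picked because 1b+/- replicates 2 to 4 lay above both WT libraries. *Cdhr1*, a protocadherin of mitral and tufted cells, was 3.72 and 2.91 CPM in WT and 4.35, 60.9, 26.2 and 30.3 CPM in 1b+/-. *Tfap2e*, a transcription factor of the olfactory system, was 0.248 and 0.306 CPM in WT and 0, 4.84, 2.13 and 2.0 CPM in 1b+/-, and *Zpld1* was 0.248 and 0.306 CPM in WT and 0.791, 7.77, 3.97 and 3.67 CPM. *Foxd3*, a neural crest factor, was 0.413 and 0.306 CPM in WT and 0.791, 4.64, 1.65 and 1.0 CPM. Replicate 2 was the highest library for all 4, and 1b-/- replicate 2 held 21.5 CPM of *Cdhr1* against 4.04 CPM in 1b-/- replicate 1.

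A further 3 genes were highest in replicate 1 of 1b+/-. *Tfap2b*, a transcription factor of cerebellar interneurons and midbrain, was 161 CPM there, 48.5 CPM in replicate 2, 7.36 and 6.00 CPM in replicates 3 and 4, and 5.37 and 2.14 CPM in WT. Replicate 2 thus also lay far above WT, and the log2 fold change was 2.43 without replicate 1. *Pou4f2*, a factor of retinal ganglion cells and dorsal midbrain, was 21.2 CPM in replicate 1 and at most 2.62 CPM in the other 5 libraries. *Ibsp*, a bone matrix protein, was 60.1 CPM in replicate 1 and 4.13 to 12 CPM in the other 5. The amount of neighbouring tissue in each dissection was not tested.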
